A study of Mus musculus with 7 samples.

Results

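The genes described here build and run cilia, the microtubule-based projections of the cell surface. They were chosen by symbol, as the protein-coding genes named Ift, Bbs, Tctn, Cfap, Dnah, Dnai or Rsph with a number, together with Foxj1, and they numbered 79 of the 21865 protein-coding genes in the count tables. The 24 Ift, Bbs and Tctn genes make up the primary cilium set (14 Ift, 8 Bbs and 2 Tctn) and the other 55 the motile cilium set (31 Cfap, 15 Dnah, 8 Rsph and Foxj1). No gene carried a Dnai symbol in the annotation used. The libraries were bulk RNA-seq of EPCAM-positive endometrial epithelial cells, isolated magnetically from dissociated uteri of CD-1 mice. The 4 mutant libraries came from individual mice aged 120 days with the genotype LtfCre0/+; Brg1fl/fl, in which Cre is expressed from the lactoferrin locus, active in adult uterine epithelium, and deletes floxed Brg1 (gene symbol Smarca4), the ATPase of SWI/SNF chromatin remodelling complexes. The 3 control libraries were wild-type CD-1 epithelium, each from pooled mice of an age not given in the sources used here, carrying neither Cre nor floxed alleles, and were reanalysed by the submitters from previous work. Genotype, pooling of mice and source of the libraries therefore cannot be told apart.

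A cilium grows from a basal body and is maintained by intraflagellar transport (IFT), in which kinesin carries IFT-B and IFT-A particles with their cargo to the tip and cytoplasmic dynein carries them back. The BBSome, a coat-like complex of Bardet-Biedl syndrome proteins, links membrane proteins to these trains, and the transition zone at the base, which holds the tectonics, filters what enters. Most cell types can form a primary cilium, which senses signals such as Hedgehog and uses IFT, BBSome and transition zone. Multiciliated cells, found in the oviduct and in small numbers in human endometrium, add dynein arms (Dnah heavy chains), radial spokes (Rsph) and other axonemal proteins (many of the Cfap genes) under the forkhead factor Foxj1.

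Promoter windows from RefSeq (GRCm38.p6, 250 bases before to 50 bases after the annotated start) were at hand for 64 of the 79 genes, and they are shown first because the choice of genes by symbol did not use them. Each motif searched was absent from most of the 64. Regulatory factor X (RFX) proteins, which act on many cilium genes, bind the X-box. Its palindromic form, searched as GTTNCC and GGNAAC with any 2 bases between them, stood in 3 of the 64 windows (4.69%), those of Bbs7, Tctn1 and Cfap298, against 0.509% of the 16504 protein-coding genes with a window and 0.529% of all 27025 genes with one. The shorter core GTTGCC, searched on both strands like the other motifs, stood in 25 of the 64 windows (39.1%), 10 of 21 in the primary set (47.6%) and 15 of 43 in the motile set (34.9%), against 14.0% of protein-coding genes. Each of the 3 X-boxes contains at least 1 core, so the counts overlap. The forkhead motif GTAAACA stood in 3 windows (4.69%), those of Cfap20, Cfap43 and Dnah17, against 3.50% of protein-coding genes. A match is a string of letters in the window and not a measured binding site. The windows below are those of the 4 genes with a window that were higher in the mutants (Ift52, Ift140, Bbs7 and Dnah8) and of the other 2 genes with an X-box. They run 5′ to 3′ on the gene's strand in lower case, with X-boxes and cores, on either strand, in capitals.
Ift52 (chr2:163017103-163017402, plus strand): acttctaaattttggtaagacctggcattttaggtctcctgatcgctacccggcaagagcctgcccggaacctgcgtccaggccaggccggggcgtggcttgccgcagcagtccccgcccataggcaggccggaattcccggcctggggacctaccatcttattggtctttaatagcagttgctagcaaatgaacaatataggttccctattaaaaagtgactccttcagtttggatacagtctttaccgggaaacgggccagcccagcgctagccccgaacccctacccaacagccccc
Ift140 (chr17:25015836-25016135, plus strand): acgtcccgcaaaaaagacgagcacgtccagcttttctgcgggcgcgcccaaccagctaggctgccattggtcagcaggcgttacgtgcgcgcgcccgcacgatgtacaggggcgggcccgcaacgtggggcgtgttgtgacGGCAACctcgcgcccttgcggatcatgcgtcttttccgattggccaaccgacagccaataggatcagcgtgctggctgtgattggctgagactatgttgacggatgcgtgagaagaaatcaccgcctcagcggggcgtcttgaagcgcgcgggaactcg
Bbs7 (chr3:36613340-36613639, minus strand): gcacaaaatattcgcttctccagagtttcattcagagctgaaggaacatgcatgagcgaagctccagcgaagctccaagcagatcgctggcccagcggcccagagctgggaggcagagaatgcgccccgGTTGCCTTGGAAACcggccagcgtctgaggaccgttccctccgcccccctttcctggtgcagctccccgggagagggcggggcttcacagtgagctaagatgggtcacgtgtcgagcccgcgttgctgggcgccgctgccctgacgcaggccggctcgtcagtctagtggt
Dnah8 (chr17:30626686-30626985, plus strand): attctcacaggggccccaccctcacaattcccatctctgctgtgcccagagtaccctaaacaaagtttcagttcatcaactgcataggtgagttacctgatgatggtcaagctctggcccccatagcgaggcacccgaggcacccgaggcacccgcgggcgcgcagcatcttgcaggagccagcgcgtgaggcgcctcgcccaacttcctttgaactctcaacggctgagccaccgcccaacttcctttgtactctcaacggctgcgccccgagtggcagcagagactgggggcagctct
Tctn1 (chr5:122264411-122264710, minus strand): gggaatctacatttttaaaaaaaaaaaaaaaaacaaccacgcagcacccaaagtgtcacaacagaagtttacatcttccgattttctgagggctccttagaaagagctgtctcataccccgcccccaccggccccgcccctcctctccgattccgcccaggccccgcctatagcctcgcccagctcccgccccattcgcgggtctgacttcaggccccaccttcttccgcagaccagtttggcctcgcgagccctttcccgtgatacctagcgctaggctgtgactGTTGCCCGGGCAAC
Cfap298 (chr16:90934800-90935099, minus strand): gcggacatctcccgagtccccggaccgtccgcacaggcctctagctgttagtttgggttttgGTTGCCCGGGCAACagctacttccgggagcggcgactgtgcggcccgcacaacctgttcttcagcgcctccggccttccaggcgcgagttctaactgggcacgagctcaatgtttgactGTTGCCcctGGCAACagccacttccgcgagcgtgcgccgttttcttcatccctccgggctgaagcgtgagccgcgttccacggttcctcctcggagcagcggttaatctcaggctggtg
With the first base from the RefSeq start numbered 1 and the base before it -1, the X-box began at -121 in Bbs7, where it read GTTGCCTTGGAAAC. It began at 37 in Tctn1 and at -188 in Cfap298, where it read GTTGCCCGGGCAAC in both. Ift140 had a core, on the opposite strand, at -109, and neither motif was in the Ift52 or Dnah8 window. The Dnah8 and Cfap298 windows lie inside these genes as annotated by GENCODE, downstream of the start of their longest extent. For Cfap298 that extent is chr16:90925809-90935114 on the minus strand, so its X-box also lies inside the GENCODE gene. Among the 4 called genes with a window, 2 held a core (50%), against 40% of the 40 tested cilium genes with a window.

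Levels are reads of a gene per 1000000 reads in tested genes after TMM scaling (CPM), and a fold change is mutant against control. Gene reads numbered 12436971 to 13364080 in the mutants and 21372036 to 25862245 in the controls, so a count of 3 reads, taken as the detection floor, corresponded to 0.183 to 0.235 CPM in mutants, against 0.136 to 0.159 CPM in controls. Smarca4 was at 87.6, 56.7, 86.9 and 105 CPM in mutants 1 to 4, against 263, 245 and 279 CPM in controls 1 to 3. Every mutant lay below every control, by a log2 fold change of -1.64 ± 0.22 (SE; adjusted p = 0.00967), although reads outside the deleted part of the gene are counted too. The call was lost without any 1 control, at -1.64 to -1.57. The epithelial marker Epcam averaged 688 CPM in mutants and 894 CPM in controls, and 7 of 7 epithelial markers were detected in every library, with sums of 7381 to 10706 CPM in mutants, against 15142 to 18432 CPM in controls. Mutant 1 stood apart from mutants 2 to 4. Its 13 proliferation genes averaged -2.63 log2 units relative to the control mean, whereas those of mutants 2, 3 and 4 averaged 1.58, 2.19 and 1.12. Results that rest on this library are therefore given with and without it. In bulk RNA, fewer cells of a type and less RNA per cell cannot be told apart.

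All 24 primary genes were expressed highly enough to be tested, and only 22 of the 55 motile genes were. Of the 46 tested cilium genes, 5 were higher in the mutants (10.9%) and 0 were lower at an adjusted p under 0.05, where 10 were higher and 2 lower at an unadjusted p under 0.05. The share of all tested genes at the unadjusted threshold was not counted. Counts at that threshold, here and below, therefore show neither an excess nor a lack. Among all 14610 tested genes 11.5% changed, 5.37% higher and 6.18% lower. The share of cilium genes that changed was thus near that of all genes. A gene that did not pass is not thereby shown to be equal in both groups. The 5 were Ift52 and Ift140 of the IFT particles, Bbs7 of the BBSome, and Cfap97 and Dnah8 of the motile set. In 10 cilium genes every mutant lay above every control and in 5 every mutant lay below, 32.6% together, against 31.5% of all tested genes (15.4% above and 16.1% below). A log2 fold change above 0 was found in 32 of the 46, against 53.5% of all tested genes. DESeq2, run on the same counts, called 9 cilium genes higher and 1 lower (Dnah10), against 23.6% of all genes (12.4% higher, 11.3% lower), and limma-voom called 4 higher and 1 lower, against 13.3% (5.35% higher, 7.95% lower). By family, the unadjusted p was under 0.05 for 4 higher and 1 lower Ift genes, 2 higher Bbs genes, 2 higher Cfap genes, 1 higher and 1 lower Dnah genes, 1 higher Rsph gene and 0 Tctn genes, and DESeq2 called 4 Ift, 2 Bbs, 2 Cfap, 1 Dnah, 0 Rsph and 0 Tctn genes higher. Without mutant 1, 10 cilium genes were higher and 4 lower, one of them (Cfap161) untested with all libraries, against a background of 29.5% (15.5% higher, 14.0% lower).

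**Figure D1:**
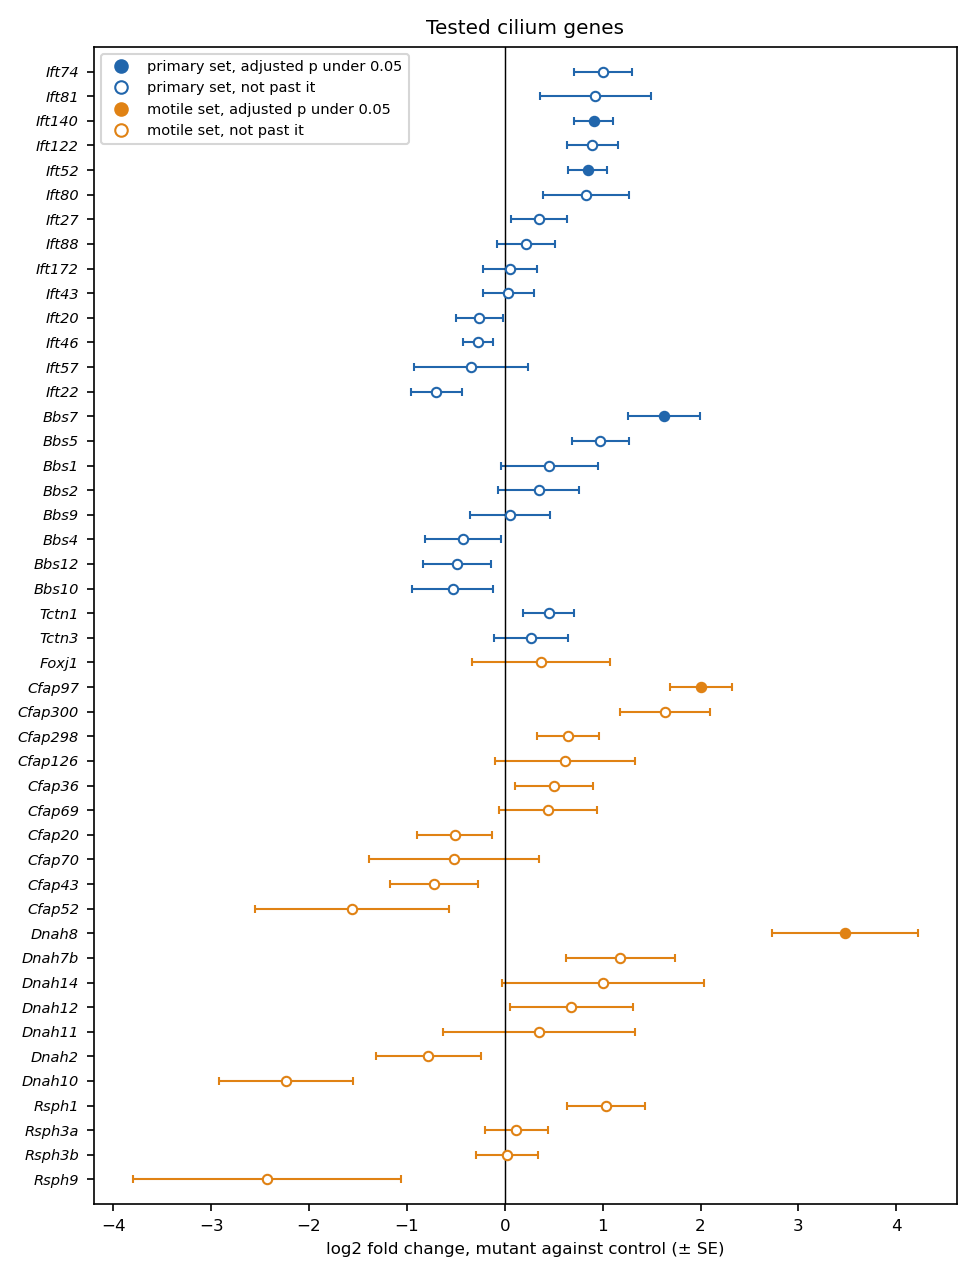
Log2 fold change, mutant against control, with its standard error for the 46 tested cilium genes, ordered within family (x axis: log2 fold change; blue: primary set; orange: motile set; filled: adjusted p under 0.05). The filled points are Ift140, Ift52, Bbs7, Cfap97 and Dnah8, all to the right of 0, and the motile genes spread from -2.43 (Rsph9) to 3.47 (Dnah8).

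Among the 14 IFT genes 2 rose, 0 fell and 12 did not pass, with a median log2 fold change of 0.28. Ift52, a core subunit of IFT-B (ENSMUSG00000017858.12, chr2:163017354-163046141, plus strand, GRCm38), was at 36.9, 51.2, 36.2 and 36.0 CPM in mutants 1 to 4, against 24.3, 20.3 and 22.4 CPM in controls 1 to 3. All mutants exceeded all controls, mutant 2 by the widest margin. The log2 fold change was 0.85 ± 0.20 (SE; adjusted p = 0.0384), a 1.80-fold difference in level. Ift140, a core subunit of IFT-A (ENSMUSG00000024169.16, chr17:25016085-25099495, plus strand), was at 25.7, 27.0, 27.1 and 37.0 CPM in mutants, against 16.1, 15.4 and 15.2 CPM in controls. The groups did not overlap, mutant 4 being the highest, and the log2 fold change was 0.91 ± 0.20 (SE; adjusted p = 0.0317).

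Ift74, which with Ift81 forms the tubulin-binding module of IFT-B, had the highest fold change of the family. Its level was 6.96, 9.13, 11.2 and 13.5 CPM in mutants, against 5.01, 5.40 and 4.86 CPM in controls. The groups did not overlap, but the difference of 1.003 ± 0.295 log2 units did not pass (adjusted p = 0.0679). The same held for Ift122 of IFT-A, at 33.2 to 62.9 CPM in mutants, against 22.9 to 31.6 CPM in controls (0.89 ± 0.26; adjusted p = 0.0652). Ift22, a small GTPase of IFT-B, lay at the other end of the family. It was at 7.59, 5.91, 8.89 and 7.80 CPM in mutants, against 15.4, 9.89 and 11.6 CPM in controls, without overlap (-0.70 ± 0.26; adjusted p = 0.120). Ift46, another IFT-B subunit, was also without overlap at 34.9 to 43.3 CPM in mutants, against 44.1 to 49.1 CPM in controls (-0.27 ± 0.16; adjusted p = 0.277). Per kilobase of exon the most abundant IFT gene was Ift20, which also serves at the Golgi, with 14.5 CPM per kilobase in mutants and 17.3 CPM per kilobase in controls. Its groups overlapped, at 17.8 to 30.3 CPM in mutants, against 22.2 to 29.4 CPM in controls.

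The BBSome genes behaved unevenly. Of the 8 Bbs genes 1 rose, 0 fell and 7 did not pass (median log2 fold change 0.20). Bbs7, a BBSome subunit (ENSMUSG00000037325.10, chr3:36573142-36613477, minus strand), was at 2.42, 1.99, 2.59 and 3.78 CPM in mutants, against 0.897, 0.899 and 0.818 CPM in controls. These levels rest on 26 to 62 reads per mutant library and 17 or 18 reads per control library. All mutants were above all controls, with a log2 fold change of 1.62 ± 0.37 (SE; adjusted p = 0.0339). Bbs5, a BBSome subunit that binds phosphoinositides, was at 4.15 to 5.49 CPM in mutants, against 2.16 to 2.68 CPM in controls, again without overlap (0.98 ± 0.29; adjusted p = 0.0682). Bbs2, the most abundant of the family per kilobase, overlapped between groups. It was at 22.5, 7.29, 10.9 and 17.004 CPM in mutants and 12.8, 13.4 and 7.91 CPM in controls, mutants 1 and 4 being above all controls and mutant 2 below them (0.34 ± 0.42; adjusted p = 0.610). Bbs10, a chaperonin-like protein that acts in assembly of the complex, was lowest in fold change, at 0.670 to 1.53 CPM in mutants, against 1.23 to 2.17 CPM in controls (-0.53 ± 0.42; adjusted p = 0.422).

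Neither tectonic gene passed. Tctn1 was at 23.2, 14.7, 15.8 and 13.5 CPM in mutants, against 11.9, 14.0 and 11.05 CPM in controls (0.45 ± 0.26; adjusted p = 0.279), mutant 4 lying within the control range. As 23.9% of its 50-base words also occur in other genes, its count is uncertain. Tctn3 overlapped likewise, with mutants at 2.91 to 8.37 CPM and controls at 4.18 to 4.85 CPM (0.27 ± 0.38; adjusted p = 0.670). Over all 24 primary genes the median log2 fold change was 0.31, against 0.06 over all tested genes. With total-count scaling those medians were 0.65 and 0.41. Without mutant 1 they were 0.079 and 0.054, so most of the distance between them rests on that library.

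Whether the 3 primary genes that rose passed depended on the libraries used, as calls did over all genes. Calls over all genes numbered 1687 with all libraries and 4403, 1009, 629 and 940 without mutants 1 to 4. They numbered 133, 169 and 137 without controls 1 to 3. The log2 fold changes of the 3 primary genes stayed between 0.71 and 1.75 whichever 1 library was left out. Without mutant 2 only Bbs7 passed and without mutant 4 only Ift122 (1.06; adjusted p = 0.0378), whereas without mutant 3 or any 1 of the 3 controls 0 primary genes passed. Without mutant 1 the 3 genes passed together with Bbs5, Ift74 and Ift122. Over the other scalings, filters, tools and left-out libraries tried, the adjusted p ranged from 0.00135 to 0.142 for Ift52. It ranged from 0.000419 to 0.133 for Ift140 and from 0.00125 to 0.146 for Bbs7. These ranges leave out the edgeR fit with replicates 1 to 3 as blocks, where it was 0.195, 0.199 and 0.206.

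**Figure D2:**
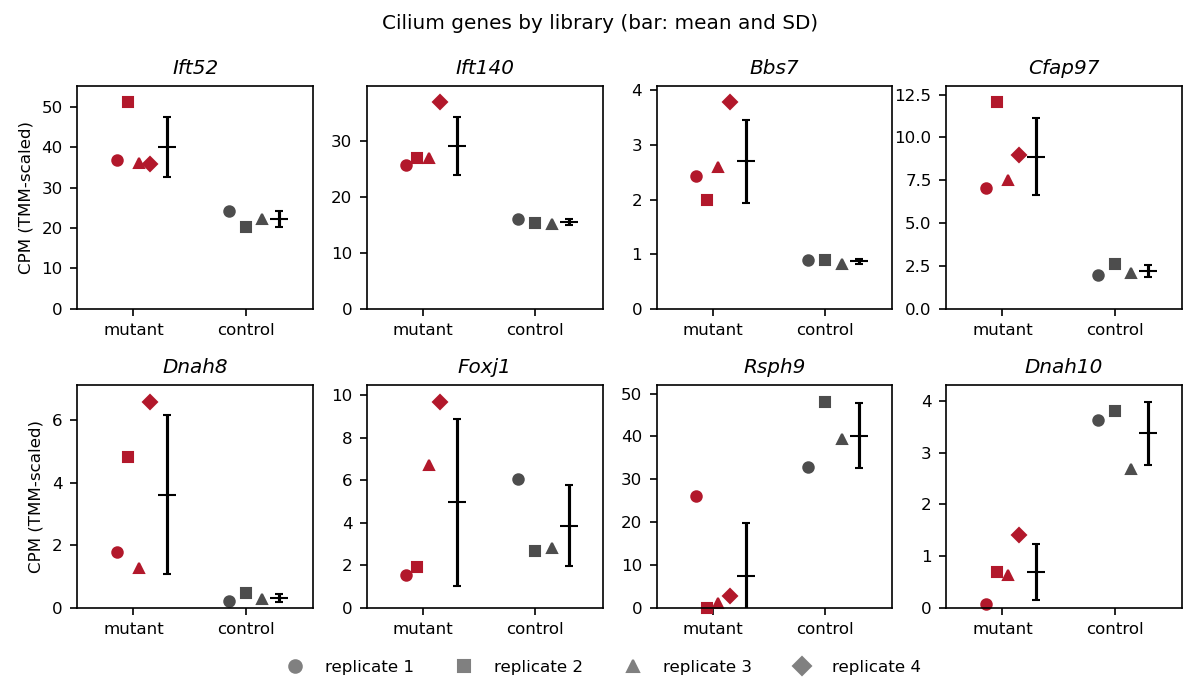
Level (TMM-scaled CPM, y axis from 0) of 8 cilium genes in each mutant library (red) and control library (grey), with the mean and SD of each group to the right of its points; marker shape is the replicate number, which pairs nothing, and the SD bar of Rsph9 in the mutants is cut at 0. Ift52, Ift140, Bbs7, Cfap97 and Dnah8 were higher in every mutant than in any control, Foxj1 overlapped, and Rsph9 and Dnah10 were lower in every mutant.

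The motile set was expressed at low levels. Foxj1, the master regulator of motile ciliogenesis, was at 1.56, 1.92, 6.72 and 9.69 CPM in mutants, against 6.07, 2.70 and 2.82 CPM in controls. Mutants 1 and 2 lay below all controls and mutants 3 and 4 above them, so the groups overlapped (log2 fold change 0.37 ± 0.70, SE; adjusted p = 0.757). Without mutant 4 the log2 fold change of Foxj1 was -0.17.

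Among 31 Cfap genes, which encode proteins assigned to cilia and flagella, 10 were tested, of which 1 rose and 0 fell. Cfap97 (ENSMUSG00000031631.15, chr8:46151771-46195590, plus strand) was at 7.04, 12.0, 7.49 and 8.96 CPM in mutants, against 1.95, 2.59 and 2.09 CPM in controls. All mutants exceeded all controls, and the log2 fold change was 2.003 ± 0.317 (SE; adjusted p = 0.0137), a 4.01-fold difference. It passed whichever 1 mutant was left out and missed the threshold without any 1 control, where the log2 fold change was 1.94 to 2.18. Cfap300, required for dynein arm assembly in humans, was at 3.45 to 9.31 CPM in mutants, against 1.23 to 2.59 CPM in controls without overlap (1.64 ± 0.46; adjusted p = 0.0603), and passed without mutant 1 (1.34). Cfap298, another assembly factor and the most abundant of the 79 cilium genes per kilobase in the mutants, was at 23.7, 41.2, 62.5 and 37.7 CPM in mutants and 24.1, 26.6 and 28.3 CPM in controls. Mutants 2 to 4 were above all controls and mutant 1 below them (0.65 ± 0.32; adjusted p = 0.207), and without mutant 1 it passed (0.88; adjusted p = 0.0253). The level per kilobase was 26.0 CPM in mutants and 16.6 CPM in controls, where Rsph9 and Ift20 were higher, and 36.0% of its 50-base words are shared with other genes. Cfap52, an axonemal microtubule inner protein, was lowest in fold change (-1.56 ± 0.99; adjusted p = 0.323). It was at 0.156, 1.46, 0.140 and 0.122 CPM in mutants and 0.422, 1.38 and 2.32 CPM in controls, 3 of the 4 mutants being under the floor of 3 reads. Cfap43, a flagellar axoneme protein, was at 120, 43.0, 30.7 and 46.0 CPM in mutants and 95.6, 95.8 and 105 CPM in controls. Mutant 1 was above all controls and mutants 2 to 4 below them, and Cfap43 was among the genes called lower without mutant 1 (-1.26).

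Axonemal dynein heavy chains were scarce. Of 15 Dnah genes 7 were tested, 1 rose and 0 fell. Dnah8, an outer arm heavy chain known from sperm flagella (ENSMUSG00000033826.10, chr17:30624354-30877365, plus strand), was at 1.80, 4.83, 1.26 and 6.58 CPM in mutants, against 0.211, 0.476 and 0.273 CPM in controls. These correspond to 23, 63, 18 and 108 reads in mutants and 4, 9 and 6 reads in controls. The groups did not overlap, with a log2 fold change of 3.47 ± 0.74 (SE; adjusted p = 0.0299), which stayed between 2.85 and 3.91 in every alternative run. Dnah8 missed the threshold with limma-voom, with unstranded counts, with a replicate block (2.87), without mutant 2 (3.32), without mutant 4 (3.02) and without any 1 control (3.28 to 3.91). Dnah10, an inner arm heavy chain, had a negative log2 fold change. It was at 0.0782, 0.690, 0.630 and 1.40 CPM in mutants, against 3.64, 3.81 and 2.68 CPM in controls. Every mutant was below every control, mutant 1 at a single read, and the difference did not pass (-2.24 ± 0.68; adjusted p = 0.0747). DESeq2, limma-voom and the fit without mutant 1 (-1.83) each called it lower. Dnah14 was the most abundant heavy chain per kilobase in the mutants (0.552 CPM), whereas in the controls Dnah2 (0.429 CPM) was above Dnah14 (0.274 CPM). It was also the most variable among the mutants, at 22.5, 0.614, 1.89 and 10.8 CPM in mutants and 3.96, 5.45 and 3.96 CPM in controls. Mutants 1 and 4 were above all controls and mutants 2 and 3 below them (1.01 ± 1.03; adjusted p = 0.546), and the direction turned with limma-voom (-0.05). Without mutant 1 the log2 fold change of Dnah14 was 0.064.

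No radial spoke gene passed among the 4 tested of 8. Rsph9, a spoke head component, was at 26.0, 0, 1.12 and 2.68 CPM in mutants, against 32.9, 48.1 and 39.5 CPM in controls. All mutants were below all controls, mutant 1 narrowly and the other 3 by a wide margin, with no read in mutant 2, where 3 reads would be 0.230 CPM. With all 7 libraries the log2 fold change was -2.43 ± 1.37 (SE; adjusted p = 0.268), and without mutant 1 it was -4.89 and passed. Per kilobase Rsph9 was the most abundant cilium gene in the controls, at 25.1 CPM, and stood at 4.66 CPM in the mutants. Rsph1, another spoke head component, was at 2.24 to 4.75 CPM in mutants, against 1.36 to 2.16 CPM in controls without overlap (1.03 ± 0.40; adjusted p = 0.130). Rsph3a and Rsph3b overlapped between groups, and 58.1% and 69.2% of their words are shared with other genes, so their counts are uncertain.

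**Figure D3:**
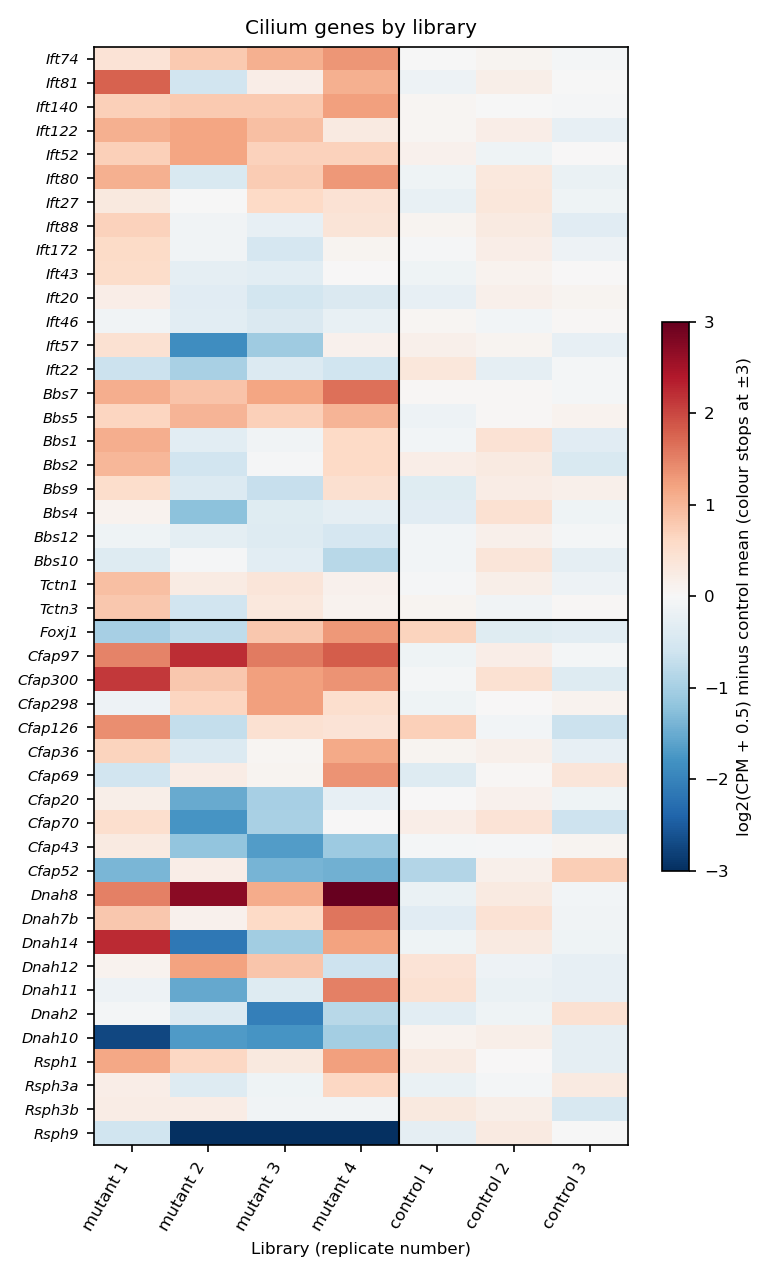
Log2 of CPM plus 0.5, minus the control mean, of the 46 tested cilium genes (rows, by family and fold change) in the 4 mutant and 3 control libraries (columns); red is above and blue below the control mean, with the colour scale ending at ±3. The horizontal line parts the primary from the motile set; Ift57, Dnah14 and Rsph9 differ in colour between mutant 1 and mutant 2.

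Variation between libraries was larger in the motile than in the primary set, among mutants and among controls alike. The median SD of log2 CPM over the 22 tested motile genes was 0.924 among mutants and 0.407 among controls, against 0.408 and 0.199 over the 24 primary genes and 0.519 and 0.235 over all tested genes. Some tested motile genes, such as Cfap52, Dnah10 and Rsph9, fell below the detection floor in some mutant libraries. The part of low counts in this spread was not tested. The mean of the primary set, in log2 units relative to the control mean, was 0.59, -0.11, 0.10 and 0.37 in mutants 1 to 4, against -0.11 to 0.15 in controls. That of the motile set was 0.26, -0.63, -0.36 and 0.41 in mutants, against -0.13 to 0.13 in controls. In both sets mutants 1 and 4 were above all controls. Mutants 2 and 3 were within the control range in the primary set and below it in the motile set. For the motile set the median log2 fold change (0.41) and the mean over libraries (-0.08) differed in sign. Over all tested genes these measures were 0.06 and -0.13, so the split is not particular to the motile set. The all-gene mean was -0.09, -0.20, -0.15 and -0.09 in mutants 1 to 4, an offset that every list mean carries. No direction is given for the motile set as a whole. The motile median was 0.11 without mutant 1 and -0.080 without mutant 4. The 4 radial spoke genes were on average 0.29, -1.95, -1.23 and -0.48 in mutants, against -0.14 to 0.11 in controls.

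Proliferation genes ran nearly opposite to these sets among the mutants. Mutants 1 and 4, the highest in both cilium sets, were the lowest in proliferation, and mutants 2 and 3 were the highest in proliferation and the lowest in both cilium sets. Mutants 1 and 4 were also the highest over all tested genes and in the endothelial, muscle and oviduct marker lists described below. In mutants 1 to 4 the means were 0.02, -1.82, -1.65 and -0.03 for endothelium and 0.72, -3.09, -2.30 and -1.99 for muscle. Those for oviduct were 0.88, -2.15, -2.45 and -1.47. The epithelial, stromal, immune and mesothelial lists did not have this order. It was thus not particular to the cilium sets. Summed proliferation markers ran from 317 to 1663 CPM over the mutants and from 406 to 668 CPM over the controls. Their part in the results was not tested. None of the 13 proliferation genes passed with edgeR, 1 was higher at an unadjusted p under 0.05 and DESeq2 called 1 higher. Top2a, a mitotic topoisomerase, was at 270, 281, 406 and 247 CPM in mutants, against 115, 141 and 213 CPM in controls (0.95 ± 0.28; adjusted p = 0.0691). In mutant 1 it made up most of the summed 317 CPM and lay above all controls, unlike the list mean of -2.63 there. Without mutant 1, 11 of the 13 were higher, Top2a among them (1.04; adjusted p = 0.0325), against 15.5% of all genes tested in that fit.

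The other 33 motile genes were too low to be tested. Of these, 4 had no read in any library (Cfap97d1, Cfap97d2, Dnah9 and Rsph14), 13 including these had at most 3 reads in every library, and the highest count of any was 18 reads. Together they summed to 7.04, 6.06, 3.57 and 7.56 CPM in mutants 1 to 4, against 6.33, 6.14 and 6.09 CPM in controls. Their summed level thus overlapped between groups. Dnah9 and Dnah5, the outer arm heavy chains of respiratory and oviduct cilia, had 0 and at most 18 reads, and Rsph4a, a spoke head component of multiciliated cells, at most 9. Among further genes that mark or specify multiciliated cells, some were picked here for their low counts. Sntn and Fam183b had no read in any library. Dynlrb2, Ccdc153, Ccdc113, Cdhr3 and Cdc20b had no read in a mutant and 1 to 3 reads over the 3 controls. The regulators Gmnc, Mcidas and Deup1 had 3, 1 and 6 reads over the 4 mutants and 0 in the controls. These genes do not stand for their lists. The 42 further motile genes described below summed to 134 to 172 CPM in mutants, against 85.1 to 97.3 CPM in controls. The list of 17 ciliogenesis regulators, which holds Gmnc, Mcidas, Deup1 and Cdc20b, summed to 132 to 313 CPM in mutants, against 221 to 255 CPM in controls.

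**Figure D4:**
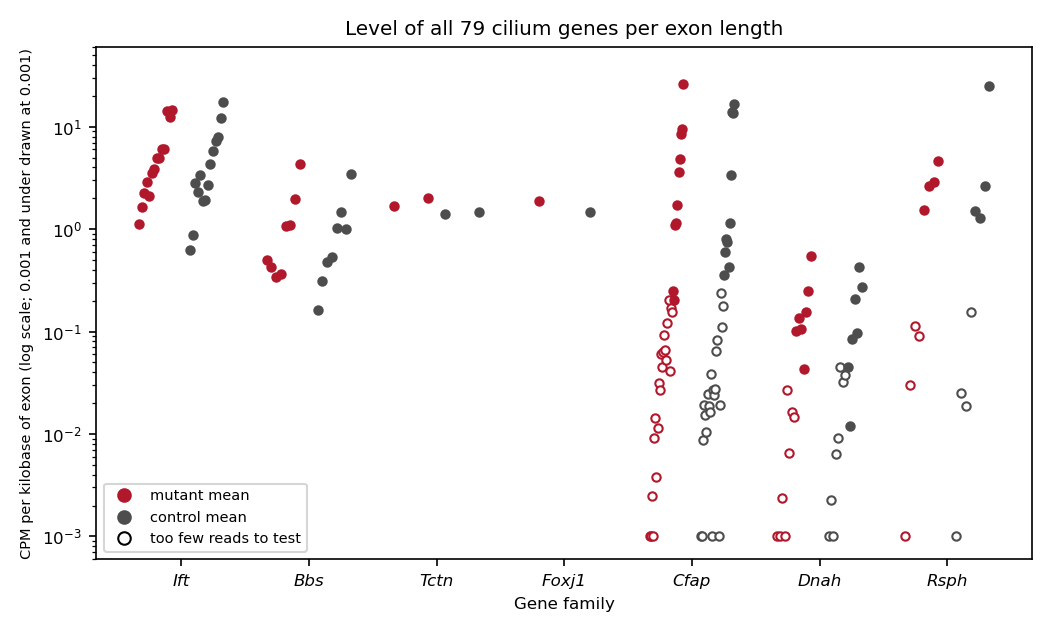
Mean level of each of the 79 cilium genes in mutants (red) and controls (grey), in CPM per kilobase of exon on a log axis, by family; open circles are genes with too few reads to test, and levels of 0.001 and under are drawn at 0.001. The primary families lie above 0.1 throughout, with medians of 2.16 in mutants and 1.89 in controls, while the motile set has medians of 0.0903 and 0.0446 and reaches 26.0 (Cfap298 in mutants) and 25.1 (Rsph9 in controls).

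The other genes of these pathways, in 6 lists of 117 genes, 75 of them tested, gave 8 higher and 2 lower (13.3%), near the 11.5% of all tested genes (5.37% higher, 6.18% lower), with a median log2 fold change of 0.49, against 0.06. The list counts at an adjusted p that follow stand against the same 11.5% with edgeR and against 23.6% with DESeq2. Of the 17 tested IFT genes with other names, which include motors and further particle subunits, 2 rose, 1 fell and 14 did not pass. Kifap3, the accessory subunit of the anterograde motor kinesin-2, was at 20.9, 27.2, 26.1 and 29.2 CPM in mutants, against 15.1, 14.3 and 13.9 CPM in controls (0.84 ± 0.19; adjusted p = 0.0352). Ttc30b, an IFT-B subunit with close copies, was at 2.03 to 2.68 CPM in mutants, against 0.0528 to 0.370 CPM in controls (3.14 ± 0.60; adjusted p = 0.0223), and is uncertain because 34.8% of its words are shared. Kif17, a homodimeric kinesin-2, was lower at 1.15 to 1.71 CPM in mutants, against 2.90 to 4.09 CPM in controls (-1.30 ± 0.32; adjusted p = 0.0421). None of these 3 genes overlapped between groups.

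Of 7 further BBSome-related genes 2 rose and 1 fell. Lztfl1, which restrains BBSome entry to the cilium, was at 24.9, 26.7, 28.2 and 25.0 CPM in mutants, against 14.2, 13.6 and 13.2 CPM in controls (0.94 ± 0.17; adjusted p = 0.0193). Arl6, the small GTPase that recruits the BBSome to membranes, was at 4.41 to 7.98 CPM in mutants, against 2.05 to 2.38 CPM in controls (1.42 ± 0.34; adjusted p = 0.0390). Both thus rose alongside Bbs7. Trim32, a ubiquitin ligase also known as a Bardet-Biedl gene, was lower at 7.98 to 14.5 CPM in mutants, against 24.8 to 29.3 CPM in controls (-1.32 ± 0.24; adjusted p = 0.0195). Of 17 transition zone genes, the compartment of the tectonics, 2 rose and 0 fell (4 higher and 0 lower at an unadjusted p under 0.05, 3 and 0 with DESeq2). Tmem231 was at 4.77 to 8.17 CPM in mutants, against 2.59 to 3.36 CPM in controls (1.21 ± 0.31; adjusted p = 0.0460), and Cc2d2a was at 15.6 to 25.4 CPM in mutants, against 9.09 to 9.84 CPM in controls (1.01 ± 0.24; adjusted p = 0.0406).

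Of 42 further motile cilium genes 16 were tested, 2 rose and 0 fell (3 higher and 0 lower both at an unadjusted p under 0.05 and with DESeq2). Dnaaf3, a factor that assembles dynein arms in the cytoplasm, was at 11.3, 11.5, 9.66 and 10.1 CPM in mutants, against 2.22, 3.02 and 2.27 CPM in controls. The groups did not overlap, and the adjusted p was the lowest of the changed cilium genes in these sets and lists (2.09 ± 0.26, SE; adjusted p = 0.00775). Capsl, a calcium-binding protein, was at 10.2 to 27.5 CPM in mutants, against 6.19 to 8.60 CPM in controls (1.56 ± 0.38; adjusted p = 0.0404). None of 9 tested regulators of ciliogenesis passed, where 1 was higher at an unadjusted p under 0.05 with edgeR and DESeq2 called 0. E2f4, a cell cycle factor used in multiciliated cell differentiation and the most abundant of them, was at 28.6, 73.5, 95.1 and 55.9 CPM in mutants and 64.6, 67.1 and 89.2 CPM in controls. Mutant 1 was the lowest, and without it the log2 fold change of -0.22 became 0.06. None of 9 tested Hedgehog genes passed with edgeR, although DESeq2 called 3 higher and 3 were higher and 1 lower at an unadjusted p under 0.05. Gpr161, a ciliary receptor that restrains Hedgehog signalling, was at 100, 7.29, 13.2 and 22.2 CPM in mutants and 101, 90.4 and 109 CPM in controls. Mutant 1 was thus at the control level and mutants 2 to 4 below it (-1.49 ± 0.81; adjusted p = 0.255), and without mutant 1 the log2 fold change was -2.76 and passed.

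Leaving out libraries moved these lists as it moved the named sets and the calls over all genes. Without mutant 1, 14 of the genes were higher and 3 lower, where 15.5% of all genes were higher and 14.0% lower. Without mutants 2, 3 and 4 in turn, 4, 1 and 3 were higher, and without controls 1, 2 and 3 in turn, 0, 1 and 0 were higher. Over all genes, calls fell from 1687 to 1009, 629 and 940 without those mutants and to 133, 169 and 137 without those controls.

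**Figure D5:**
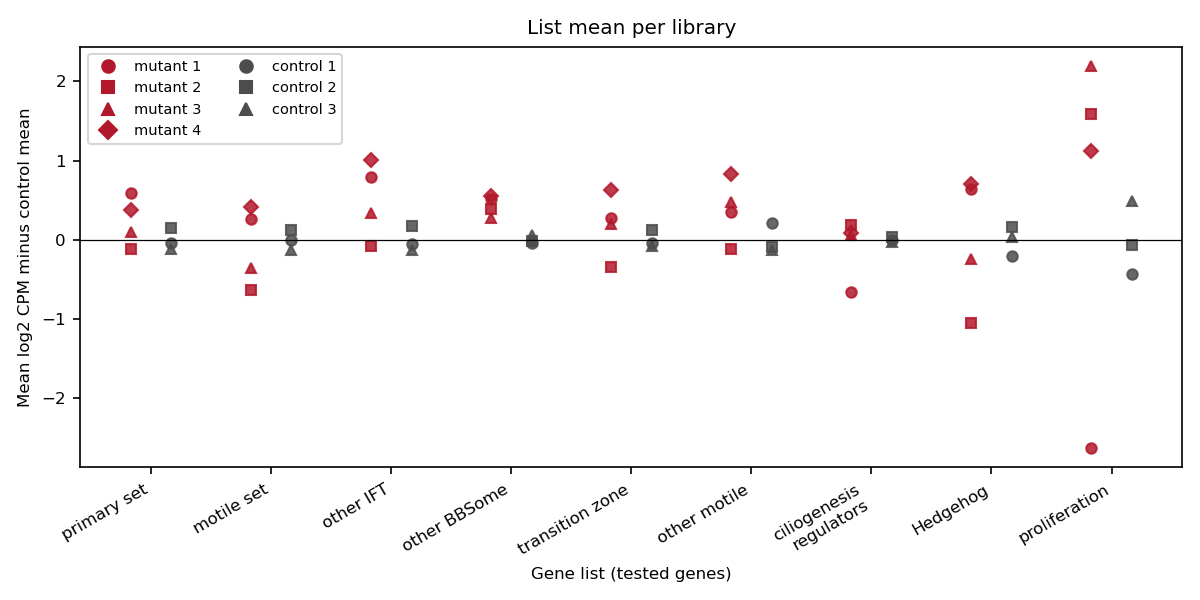
Mean over the tested genes of each list of log2 CPM minus the control mean (y axis), for each mutant (red, left) and control library (grey, right); marker shape is the replicate number. In the other BBSome list all 4 mutants (0.28 to 0.56) lie above all controls (-0.04 to 0.06), in the proliferation list mutant 1 lies at -2.63, and in the remaining lists at least 1 mutant falls within or below the control range. Over all tested genes, not drawn, the mean was -0.20 to -0.09 in mutants.

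Markers of other cells that the preparation could hold were present in both groups. Of 8 stromal markers 1 fell, decorin (Dcn), at 28.8 to 47.7 CPM in mutants, against 98.1 to 148 CPM in controls (-1.77 ± 0.24; adjusted p = 0.00888), and the list summed to 165 to 480 CPM in mutants, against 542 to 694 CPM in controls. Of 7 epithelial markers 2 fell. Krt8, a keratin, averaged 1771 ± 399 CPM in mutants and 3601 ± 433 CPM in controls, and Cdh1, the epithelial cadherin, averaged 1393 ± 119 CPM in mutants and 2622 ± 254 CPM in controls (SD, n = 4 and 3; adjusted p = 0.0421 and 0.0307). No marker of the oviduct (2 tested of 3), smooth muscle (6 of 7), endothelium (6 of 6), immune cells (8 of 8) or mesothelium (5 of 5) passed with edgeR. DESeq2 called 0 in the oviduct, muscle and endothelial lists and 1 lower each in the immune and mesothelial lists, while at an unadjusted p under 0.05 these lists held 0, 2, 0, 1 and 2 lower genes and 0 higher. Without mutant 1, 1 oviduct, 4 muscle, 0 endothelial, 2 immune and 0 mesothelial markers were lower and 0 were higher, with 3 epithelial and 1 stromal markers lower, where 14.0% of all genes were lower in that fit. Acta2 was among them (-2.27; adjusted p = 0.0477). Summed levels in mutants and controls were 96.2 to 417 and 217 to 264 CPM for the oviduct list, 7.67 to 83.2 and 67.5 to 108 CPM for muscle, 4.68 to 17.9 and 16.6 to 20.3 CPM for endothelium, 233 to 493 and 370 to 474 CPM for immune cells, and 9.39 to 39.8 and 43.2 to 58.6 CPM for mesothelium. No list had a marker at 0 in all libraries. Pax8, the gene of the oviduct list with the highest level, made up most of that list's sum. It was at 295, 119, 92.4 and 181 CPM in mutants and 167, 181 and 197 CPM in controls, mutants 2 and 3 being the lowest. Whether Pax8 reads came from oviduct cells or from the endometrial epithelium was not tested. Acta2 of smooth muscle was at 2.91 to 27.8 CPM in mutants, against 36.5 to 69.0 CPM in controls, Pecam1 of endothelium at 1.75 to 6.34 and 6.73 to 7.57 CPM, and Upk3b of mesothelium at 3.44 to 14.0 and 14.9 to 18.3 CPM. Lyz2 of myeloid cells overlapped, at 129 to 246 CPM in mutants, against 187 to 200 CPM in controls. The part of these cells in the levels of cilium genes was not tested.

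The authors' deposited table, made with DESeq2 per the submitters' processing notes, lists 72 of the 79 genes and gives an adjusted p for 62. According to the authors' deposited table, 9 of them were higher (Ift52, Ift74, Ift140, Bbs5, Bbs7, Cfap97, Cfap221, Cfap300 and Dnah8) and 2 lower (Dnah6 and Dnah10) at an adjusted p under 0.05, against 17.2% of its 18092 genes with an adjusted p (8.85% higher and 8.34% lower). For the 5 genes called with edgeR, the log2 fold changes in the authors' deposited table were 0.86 for Ift52, 0.92 for Ift140, 1.65 for Bbs7, 2.02 for Cfap97 and 3.51 for Dnah8. Cfap221 and Dnah6, which it calls, were below the count filter used with edgeR, at 19 reads over the 4 mutants and 0 over the controls for Cfap221 and 5 and 35 reads for Dnah6.

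Some cilium genes carry other symbols in the annotation and were missed by the names. Matching RefSeq symbols and synonyms added 10 genes, among them Mkks (Bbs6), Wdr19 (Ift144), Tctn2, whose gene type is not protein coding in GENCODE, and Dnaic1 and Dnaic2 (Dnai1 and Dnai2). With them 1 more motile gene was higher, Ppip5k2 (RefSeq synonym Cfap160), an inositol pyrophosphate kinase, at 68.0 to 107 CPM in mutants, against 35.5 to 49.5 CPM in controls (0.99 ± 0.22; adjusted p = 0.0327). Dnaic1 had no read in a mutant, and Dnaic2 was at 0 to 0.700 CPM in mutants, against 0.106 to 0.273 CPM in controls.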

How the data were processed

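Sorted endometrial epithelium was profiled by stranded mRNA sequencing. The authors deposited gene counts per library, whole numbers that are not normalized, with unstranded, forward and reverse columns. Per the submitters' processing notes, cutadapt, Trim Galore, FastQC, STAR, DESeq2 and mm10 were used, with no versions given. The authors also deposited 1 table of their comparison, with log2 fold changes and adjusted p-values.

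The reverse-stranded counts were used, holding at least 94.8% of stranded reads in every library. Rows of unassigned reads were left out of library sizes: unmapped reads made up 3.90% to 6.70% of a library, multimapping reads 8.45% to 11.2%, reads in no gene 10.5% to 14.7% and ambiguous reads 0.827% to 1.29%. Of 53379 gene IDs, 53274 matched GENCODE M21 (GRCm38), which gave symbols, gene types, coordinates and exon lengths. Genes kept by filterByExpr (14610) were tested in R 4.3.3 with edgeR 4.0.16 (TMM, quasi-likelihood F test, genotype as the only term, Benjamini-Hochberg over all tested genes, threshold 0.05). The standard error is the absolute log2 fold change over the square root of F. Alternatives used DESeq2 1.42.0, limma 3.58.1, other scalings, no filter, unstranded counts, a replicate block and each library left out. A floor of 3 reads covers counting error only. The test was tried on simulated counts.

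The genes, lists, tests and alternatives were chosen with earlier results of these data known. Named genes are Smarca4, Foxj1, every member past the threshold, the most abundant and the highest and lowest fold change of each family, and for each other list up to 3 called genes of at least 1 CPM or its most abundant gene; Bbs5, Ift122, Ift46, Ift57, Cfap300, Cfap43, Dnah2, Rsph3a and Rsph3b, genes of counts of at most 5, and low multiciliated-cell genes were added after their values were seen. Shared words are 50-base stretches of a gene's transcripts found in other genes. Because mutants are individual mice and controls are pools, the p-values describe variation among those units only. Each pair of libraries differed beyond counting noise (lowest chi-square per degree of freedom 61.1).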

Additional observations from a re-analysis of the deposited data

Results flagged for a closer look

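In 6 of 64 groups of 4 mutant values examined, 1 library lay far from the other 3. Its gap to its neighbour, as a share of the group's range, was above Dixon's 95% critical value. For normally distributed values in independent groups, chance alone marks about 1 group in 20. The groups here share the same 4 libraries, so 6 of 64 cannot be set against that rate. The ratio was 0.879 for Ift140, where mutant 4 was at 37.0 CPM and the others at 25.7 to 27.1 CPM, and 0.940 for Ift52, where mutant 2 was at 51.2 CPM and the others at 36.0 to 36.9 CPM. Both genes were above all controls in every mutant, the lone library included or not. For Cfap52 the ratio was 0.974, with mutant 2 at 1.46 CPM and the others at 0.122 to 0.156 CPM, below the floor of 3 reads. Mutant 1 was the lone library in the other 3 cases. For Rsph9 the ratio was 0.897, with mutant 1 at 26.0 CPM and the others at 0 to 2.68 CPM. For Gpr161 it was 0.839, with mutant 1 at 100 CPM and the others at 7.29 to 22.2 CPM. For the mean of the ciliogenesis regulators it was 0.843, with mutant 1 at -0.66 and the others at 0.06 to 0.19 log2 units relative to the control mean.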

How the results depend on the processing

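The reported counts were 3 primary and 2 motile genes higher and 0 lower, with 8 higher and 2 lower in the 6 other cilium lists. Upper-quartile scaling gave 6 primary genes and 1 lower in the lists; total-count scaling 6, a primary median of 0.65, and 16 higher and 1 lower in the lists; no filter 0, and 2 and 1; DESeq2 6 primary, 1 motile gene lower and 17 higher in the lists; limma-voom 1 motile gene higher and 1 lower; unstranded counts 1 motile gene higher and 1 lower in the lists. These scalings shifted the median of all genes to 0.20 and 0.41, against 0.06. Calls over all genes moved too, from 1687 to 1882 (upper quartile) and 2734 (total count), each of 14610 tested. Without a filter 1057 of 29033 genes were called, and from unstranded counts 1658 of 15063. DESeq2 called 3423 genes and limma-voom 1944. The cilium counts of each setting stand against these numbers. Leaving out each library gave medians of 0.079 to 0.47 for the primary and -0.080 to 0.56 for the motile set, 0 to 6 primary genes higher, 0 to 4 motile genes higher and 0 to 4 lower, 0 to 14 and 0 to 3 in the lists, and -1.76 to -1.48 for Smarca4, which missed the threshold without any 1 control. Among all genes, calls numbered 4403, 1009, 629 and 940 without mutants 1 to 4 and 133, 169 and 137 without controls 1 to 3. Same-numbered samples did not deviate together (r = -0.02, -0.36 and 0.16), so the numbers do not pair them; with a replicate block 2 of all genes were called, 0 in the primary set, 0 in the motile set (median -0.10) and 0 and 0 in the lists, and Smarca4 was at -1.78 without passing.

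Among the genes named, directions turned for these, none of which passed: Foxj1 (-0.37 with the replicate block; -0.17 to 0.88 with 1 library left out, lowest without mutant 4), Ift20 (0.076, total count), Dnah14 (-0.055 with limma-voom, -0.58 with the block), E2f4 (0.15, total count; -0.47 to 0.063 with 1 library left out, highest without mutant 1), Pax8 (0.061 upper quartile, 0.26 total count; -0.42 to 0.13 with 1 library left out, above 0 without mutants 2 or 3 or control 3), Lyz2 (0.11 upper quartile, 0.31 total count, 0.018 unstranded, 0.13 with the block; -0.12 to 0.14 with 1 library left out, above 0 without mutants 2 or 4 or controls 1 or 2) and, over all alternatives, Ift46 (-0.31 to 0.077), Ift57 (-0.90 to 0.010), Rsph3a (-0.10 to 0.49) and Rsph3b (-0.17 to 0.36). The cause was not tested. The wider set of names, chosen after the data were seen, gave 3 primary and 3 motile genes higher. Depth limits the 33 untested motile genes.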
